A study of Homo sapiens with 4 samples.

Results

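Between PPWD1 and ENC1 on the long arm of human chromosome 5 lie 40 genes, listed in gene order, whose transcripts were read in 4 arrays of the gastric carcinoma cell line SNU-16 after passage through mice. The stretch was chosen from these same arrays because its genes stood apart together on 1 of them, so the levels and differences of its members are given as a description, with no test. Of the 40 genes, 35 have at least 1 probe set of their own and 32 of these lay above a signal minimum of 5.64 on the log2 scale, out of 18417 genes with a probe set of their own and 14547 above that minimum. CD180, CARTPT and TMEM174 lay under the minimum. TAF9, OCLN, GTF2H2 and SMN1 have probe sets that the platform annotation assigns to several genes at once, and for TRIM23 no named row was used here. MRPS36 appears under its present symbol KGD4, and ERBIN was formerly ERBB2IP.

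In round 1, SNU-16 cells were placed orthotopically in the stomach of BALB/c nude mice, which lack a thymus and accept human cells, and RNA came from cultured cells of the stomach tumour (round 1 stomach) and of an ovarian metastasis (round 1 ovary). In round 2, cells named SNU-16S gave a stomach tumour and cells named SNU-16O an ovarian metastasis, and these names are read here as the stomach and ovary lines of round 1. All arrays share the 1 parental line, which the labels call highly tumorigenic, and there is 1 array for every site in every round, so a single array carries no error. The notes on both round 2 samples conflict with their titles, which were followed: that on round 2 stomach lists ovary as the site put into culture, and that on round 2 ovary closes with a stomach tumour. Were these arrays exchanged, the round 2 site difference would change sign and every change between rounds within a site would change.

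Genes that are neighbours on a chromosome mostly have unrelated tasks, and those of this stretch are no exception. They include subunits of general machineries that every dividing cell uses, among them the kinase CDK7 of the transcription factor TFIIH, the mitotic cyclin CCNB1, the RNA polymerase III factor BDP1 and proteins of the mitochondrial ribosome. Others act in epithelial tight junctions (OCLN, MARVELD2), in PI3 kinase signalling (PIK3R1) or in innate immunity (NAIP), and a few are restricted to other tissues, such as CARTPT, a neuropeptide precursor. The files hold RNA values only, so DNA copy number along the stretch is not analysed here.

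Several neighbours in the stretch start back to back on opposite strands from shared promoter DNA, and these pairs are shown first because both genes of a pair can be followed on the arrays. RefSeq promoter windows of 300 bases (build GRCh38.p14, with the gene's start inside the window) were found for 27 of the 32 measured members, 22 on the plus and 5 on the minus strand. In 4 pairs the windows of both measured genes overlap. Below, each window is read on the plus strand, 5′ to 3′, and capitals mark the bases that also lie in the window of the partner gene on the other strand.
PPWD1, with CENPK on the other strand (chr5:65563046-65563345): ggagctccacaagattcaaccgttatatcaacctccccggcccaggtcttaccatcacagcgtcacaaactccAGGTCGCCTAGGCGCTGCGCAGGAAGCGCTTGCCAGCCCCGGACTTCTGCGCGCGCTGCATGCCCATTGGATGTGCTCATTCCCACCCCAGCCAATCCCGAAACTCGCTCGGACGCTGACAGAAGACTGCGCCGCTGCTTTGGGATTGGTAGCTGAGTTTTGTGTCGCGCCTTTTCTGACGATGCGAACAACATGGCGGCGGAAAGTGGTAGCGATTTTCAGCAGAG
NLN, with SGTB on the other strand (chr5:65721955-65722254): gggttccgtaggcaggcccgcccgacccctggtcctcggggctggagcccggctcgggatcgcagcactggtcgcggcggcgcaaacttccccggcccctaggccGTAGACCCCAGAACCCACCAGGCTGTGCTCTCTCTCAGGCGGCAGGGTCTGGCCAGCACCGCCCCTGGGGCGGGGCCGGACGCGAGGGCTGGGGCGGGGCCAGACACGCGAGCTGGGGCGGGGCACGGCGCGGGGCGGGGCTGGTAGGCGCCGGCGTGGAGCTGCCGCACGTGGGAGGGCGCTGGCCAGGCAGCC
PTCD2, with MRPS27 on the other strand (chr5:72320123-72320422): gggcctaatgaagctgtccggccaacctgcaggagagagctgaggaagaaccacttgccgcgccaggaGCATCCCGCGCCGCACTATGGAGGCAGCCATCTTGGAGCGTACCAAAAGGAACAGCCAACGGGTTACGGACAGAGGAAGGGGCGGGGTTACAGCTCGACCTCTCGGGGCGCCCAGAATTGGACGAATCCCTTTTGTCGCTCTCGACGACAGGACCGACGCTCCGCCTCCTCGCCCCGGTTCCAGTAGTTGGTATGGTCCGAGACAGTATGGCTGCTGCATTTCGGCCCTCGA
UTP15, with ANKRA2 on the other strand (chr5:73565493-73565792): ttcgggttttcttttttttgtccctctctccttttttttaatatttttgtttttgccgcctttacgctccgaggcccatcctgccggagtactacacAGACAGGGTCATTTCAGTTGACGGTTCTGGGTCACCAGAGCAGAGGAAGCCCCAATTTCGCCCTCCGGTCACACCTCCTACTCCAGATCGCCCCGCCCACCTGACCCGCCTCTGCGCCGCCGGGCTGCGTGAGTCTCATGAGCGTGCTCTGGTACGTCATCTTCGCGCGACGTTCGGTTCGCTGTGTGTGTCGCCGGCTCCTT

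The windows share 227 bases in the PPWD1 and CENPK pair, 195 in the NLN and SGTB pair, 232 in the PTCD2 and MRPS27 pair and 203 in the UTP15 and ANKRA2 pair. The first pair spans the proximal end of the stretch, since CENPK, a centromere protein, is not a member. Short motifs were then searched on both strands in the 40 windows of measured members and in all 35116 windows of the table, each counted separately, so that matches of different motifs may overlap. The GC box letters GGGCGG were found in 62.5% of the member windows and 45.0% of all windows. The CCAAT box was found in 42.5% and 34.6%. The TATA box letters TATAAA were found in 10% and 11.5%. The cell cycle element letters TTTGAA were found in 20% and 15.2%. Of the windows printed above, PPWD1 holds CCAAT on both strands and no GC box, and NLN holds the GC box and no CCAAT. PTCD2 and UTP15 hold both. Several members have over 1 window, so these shares count windows and not genes. A match in bases shared by a pair is found on both strands and so counted in both windows. A match describes the letters only.

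Array medians over all 33297 rows lay between 6.80 and 6.84 on the log2 scale. The epithelial markers EPCAM, CDH1, KRT8, KRT18 and KRT19 were strong on every array, with means between 11.57 and 12.52, as were FGFR2 and MYC, which are amplified in SNU-16, and CD44 (12.27 to 13.34). Above the signal minimum were 3 of 6 leukocyte, 4 of 6 fibroblast, 2 of 5 endothelial and 4 of 6 ovarian markers, none with a mean over 7.95, and PTPRC, DCN, PECAM1 and FSHR lay under it. Median levels ranged over the arrays from 5.59 to 5.81 for leukocyte, 5.96 to 6.38 for fibroblast, 5.11 to 5.55 for endothelial and 6.05 to 6.18 for ovarian markers. The median of the epithelial markers was 11.82 on the round 1 ovary array and 11.98 to 12.09 on the others. Each of these markers had its lowest value on that array, where 25.4% of all tested genes did. Against round 1 stomach they ran from CDH1 (11.50 against 11.53) to KRT8 (12.19 against 12.54) and KRT19 (11.65 against 12.01). The part of these lower values in the results below was not tested.

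On the round 1 ovary array the transcripts of the stretch were low, while the other 3 arrays differed little from each other at the median. Of the 32 members above the minimum, 25 had their lowest value of the 4 arrays there, where 25.4% of all tested genes did. Differences are counted from 0.32 on the log2 scale, a ratio of 5 to 4. In 19 of 32 the round 1 ovary value lay at least that far under the lowest of the other 3 arrays, against a background of 2.45%. These shares are the property by which the stretch was found, so nothing is read from them. The median distance of the members from the mean of the other 3 arrays was -0.43, against 0.0052 over all tested genes, with 29 of 32 below 0 (background 48.4%) and 21 of 32 lower by at least 0.32 (background 5.66%).

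**Figure D1:**
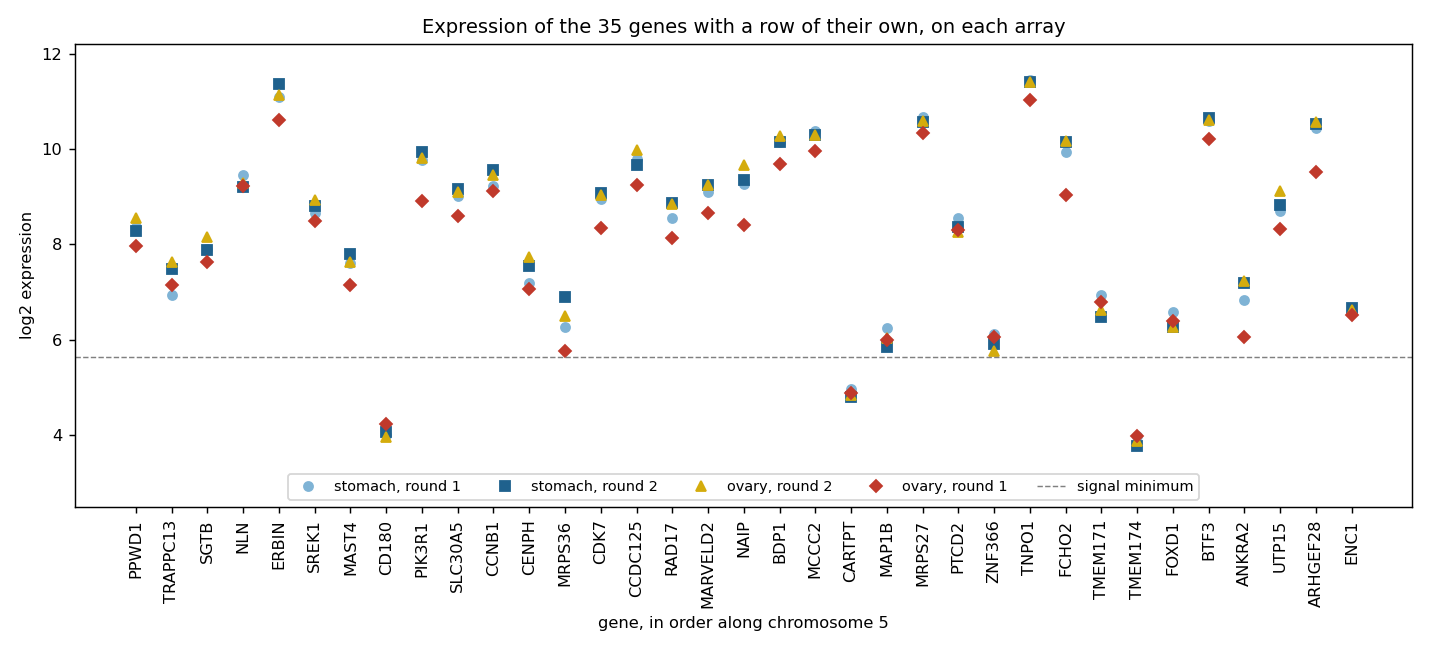
Log2 expression (y axis) of the 35 genes with a row of their own, in gene order (x axis), with 1 point per array and the signal minimum of 5.64 as a dashed line. The red diamonds of the round 1 ovary array lie under the other 3 points for most genes with strong signals, by as much as 0.92 for ARHGEF28, and do not for CD180, CARTPT and TMEM174 under the line.

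Set against the stomach array of the same round, the round 1 ovary array was lower in 31 of 32 members (background 51.4%), with a median difference of -0.40, or 1.32-fold, where the median of all tested genes was -0.0053. Lower by at least 0.32 were 20 of 32, against 4.73% of all tested genes, and 0 of 32 were higher by at least 0.32, against 5.06%. In round 2 the same comparison gave a median of 0.018, with 14 of 32 members below 0 (background 45.5%). There, 1 of 32 members was lower by at least 0.32 (background 2.87%) and 0 higher (background 4.61%). Within the ovary lineage, round 2 exceeded round 1 by a median of 0.52, or 1.43-fold, and 4 of 32 members were lower (background 50.4%). In that lineage 24 of 32 members were higher by at least 0.32 (background 9.21%) with 0 lower (background 6.51%). The stomach lineage moved by a median of 0.086, with 12 of 32 members lower in round 2 (background 53.8%). By at least 0.32, 5 of 32 members were higher (background 6.46%) and 2 lower (background 6.98%). The round 1 site difference and the ovary round change share the round 1 ovary array, so they are views of the same measurement.

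The deepest site differences in round 1 were those of ARHGEF28, FCHO2, PIK3R1, NAIP and ANKRA2. ARHGEF28, a guanine nucleotide exchange factor of RhoA (probe set 8106210), read 9.53 on the round 1 ovary array against 10.45 and 10.52 on the stomach arrays of rounds 1 and 2 and 10.56 on the round 2 ovary array. FCHO2, which bends membranes at forming clathrin-coated pits, read 9.03 there against 9.94, 10.14 and 10.16 in the same order. In both genes the other 3 arrays lie within a range far narrower than their distance to the round 1 ovary array, which was 1.89-fold under the round 1 stomach array for ARHGEF28 and 1.88-fold for FCHO2.

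PIK3R1 encodes p85 alpha, the regulatory subunit that holds class I PI3 kinase inactive until receptors recruit it. Its levels were 9.78 and 9.93 in stomach, 8.90 in round 1 ovary and 9.80 in round 2 ovary, a 1.83-fold difference between the sites in round 1 and -0.13 on the log2 scale in round 2. NAIP, a sensor of bacterial flagellin and secretion needles in the inflammasome, stood at 9.26 and 9.35 in stomach, 8.40 in round 1 ovary and 9.66 in round 2 ovary. The ovary arrays thus lay on either side of both stomach arrays, 1.80-fold lower in round 1 and 0.30 higher in round 2, and they differed from each other by 2.39-fold, the largest such distance of any member. NAIP lies in a duplicated region, and all 3 of its probe sets could also read its partial copies.

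ANKRA2, an ankyrin repeat protein that binds megalin and class IIa histone deacetylases, had the lowest level of the genes with the deepest differences. It read 6.84 and 7.19 in stomach, 6.06 in round 1 ovary and 7.24 in round 2 ovary, so that the round 1 ovary array lay 0.78 under the lowest other, round 1 stomach, which itself lay 0.35 under round 2 stomach. UTP15, its partner across the shared promoter window, fell on the same array to 8.32 against 8.70, 8.82 and, in round 2 ovary, 9.12. The difference of the sites in round 1 was therefore -0.78 for ANKRA2 and -0.38 for UTP15. The other pairs were closer to each other, with -0.28 for SGTB and -0.23 for NLN, -0.34 for MRPS27 and -0.25 for PTCD2, and -0.40 for PPWD1 and -0.20 for CENPK outside the stretch.

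Further genes filed under signalling, junctions and immunity were ERBIN, a scaffold that binds the receptor ERBB2, and CCDC125, a coiled-coil protein of cell motility. The kinase MAST4 and MARVELD2, or tricellulin, which seals the corners where 3 epithelial cells meet, were others. ERBIN was among the strongest signals of the stretch, at 11.08 and 11.36 in stomach, 10.61 in round 1 ovary and 11.13 in round 2 ovary. MARVELD2 read 9.09 and 9.25 in stomach, 8.65 in round 1 ovary and 9.24 in round 2 ovary. All 8 genes filed under signalling, junctions and immunity were lower by at least 0.32 in ovary in round 1 (background 4.73%), as were 20 of all 32 members. They ran from -0.45 to -0.92, with a median of -0.67. The immune receptor CD180 (0.24), under the signal minimum, was filed with the dim genes. The groups were drawn up with earlier results of these data known, so nothing is read from this count or from those of the other groups.

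Genes of transcription and of the DNA damage checkpoint were next. CDK7, the kinase that activates other cyclin-dependent kinases and phosphorylates RNA polymerase II, read 8.95 and 9.08 in stomach, 8.34 in round 1 ovary and 9.04 in round 2 ovary. RAD17, which loads the checkpoint clamp onto damaged DNA, read 8.56 and 8.87 in stomach, 8.14 in round 1 ovary and 8.84 in round 2 ovary. BDP1, a subunit of the polymerase III factor TFIIIB, had the same value of 10.15 on both stomach arrays, with 9.68 in round 1 ovary and 10.27 in round 2 ovary. In each of the 3 the round 1 ovary value was the lowest by at least 0.42, and their round 1 site differences were -0.61, -0.42 and -0.47.

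Among genes of RNA, ribosome and nascent protein, PPWD1, a spliceosomal cyclophilin and the first gene of the stretch, stood at 8.36 and 8.29 in stomach, 7.96 in round 1 ovary and 8.55 in round 2 ovary. BTF3, the beta subunit of the nascent polypeptide-associated complex, read 10.58 and 10.64 in stomach, 10.21 in round 1 ovary and 10.60 in round 2 ovary. SREK1, a splicing regulator, was closer, with 8.65 and 8.81 in stomach, 8.50 in round 1 ovary and 8.93 in round 2 ovary. The group was lower in round 1 ovary in 4 of 4 genes (background 51.4%), 3 of them by at least 0.32 (background 4.73%). Its median in round 2 was 0.19.

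In trafficking, transport and chaperone genes, 3 of 5 were lower by at least 0.32 in round 1 (background 4.73%). These were FCHO2, the nuclear import receptor TNPO1 and the zinc transporter SLC30A5 of the early secretory pathway. TNPO1 read 11.44 and 11.40 in stomach, 11.02 in round 1 ovary and 11.40 in round 2 ovary, and SLC30A5 differed by -0.42 in round 1 and -0.064 in round 2. SGTB, a co-chaperone with tetratricopeptide repeats, differed by -0.28 in round 1 and 0.27 in round 2, on either side of the stomach arrays.

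TRAPPC13, a subunit of the vesicle tethering complex TRAPPIII, was the one member of the 32 above the signal minimum that was higher in ovary in round 1. Under the minimum, CD180 (0.24) and TMEM174 (0.013) were higher too. Its values were 6.93 and 7.49 in stomach and 7.15 and 7.63 in ovary, so that round 2 exceeded round 1 at both sites, by 0.56 in stomach and 0.48 in ovary. Its second probe set, at a lower level, differed by 0.27 between the sites in round 1 and by -0.20 in round 2.

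Mitochondrial genes and those of peptide or amino acid breakdown had a median round 1 difference of -0.34. Of these genes, 3 of 5 were lower by at least 0.32 (background 4.73%). MRPS27, a protein of the small mitochondrial ribosomal subunit, stood at 10.67 and 10.56 in stomach, 10.33 in round 1 ovary and 10.58 in round 2 ovary. MCCC2, a subunit of the leucine-degrading enzyme methylcrotonyl-CoA carboxylase, stood at 10.37 and 10.29 in stomach, 9.96 in round 1 ovary and 10.29 in round 2 ovary. For both, the round 1 ovary value alone was apart, by 0.23 and 0.33. PTCD2, which acts in processing of mitochondrial transcripts, and NLN, the peptidase neurolysin, did not have their lowest value on that array, and their round 1 differences were -0.25 and -0.23. In PTCD2 both ovary arrays (8.30 and 8.26) lay under both stomach arrays (8.55 and 8.36).

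MRPS36, an adaptor of the oxoglutarate dehydrogenase complex once counted as a ribosomal protein, changed with the round as well as the site. It read 6.26 and 6.90 in stomach and 5.77 and 6.49 in ovary for rounds 1 and 2. Round 2 was higher at both sites, by 0.64 in stomach and 0.72 in ovary, and the ovary minus stomach difference was -0.49 and -0.40. It was the 1 member lower by at least 0.32 in ovary in round 2.

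The pair of cell division genes differed little between the sites in round 1. CCNB1, the cyclin that drives CDK1 at entry into mitosis, read 9.23 in stomach and 9.13 in ovary in round 1, and 9.55 and 9.46 in round 2. CENPH, an inner kinetochore protein, read 7.19 and 7.06 in round 1 and 7.54 and 7.73 in round 2. Both had their lowest value on the round 1 ovary array, but by only 0.099 and 0.13, and both were higher in round 2 at each site, CCNB1 by 0.33 in stomach and 0.33 in ovary and CENPH by 0.36 in stomach and 0.67 in ovary. The neighbours of this pair on either side, SLC30A5 and MRPS36, differed by -0.42 and -0.49 in round 1.

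The remaining members were dim or belong to other tissues. CD180, a receptor of B cells, CARTPT and TMEM174 had means between 3.90 and 4.88, and on none of the 3 was the round 1 ovary array the lowest. MAP1B, a neuronal microtubule protein, the transcription factors ZNF366 and FOXD1, TMEM171 and the neuronal ENC1, an actin-binding kelch protein, had means from 5.96 to 6.71. All 5 were lower in round 1 ovary (background 51.4%), from -0.065 to -0.25, and none by 0.32 (background 4.73%).

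**Figure D2:**
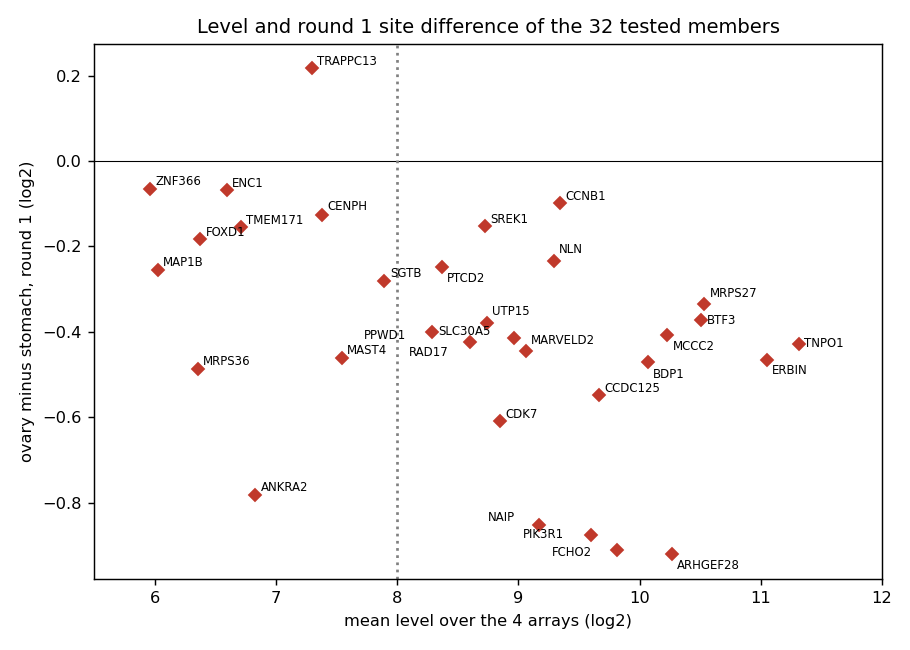
Mean level over the 4 arrays (x axis, log2) against the ovary minus stomach difference of round 1 (y axis, log2) for the 32 members above the signal minimum, 1 point per gene, with a dotted line at a level of 8. Genes at high levels lie between -0.099 and -0.92, and the dimmer genes spread from 0.22 to -0.78.

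Members with strong and with dim signals are counted apart here, on the values by which the stretch was chosen. Of the 21 members with a mean of at least 8, 21 were lower in round 1 ovary (49.1% of all tested genes at that level) and 17 by at least 0.32 (5.06%), with a median of -0.42 against 0. Among the 11 dimmer members 10 were lower (53.5%) and 3 by at least 0.32 (4.44%), with a median of -0.18 against -0.013. Those 3 were ANKRA2, MRPS36 and MAST4.

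At the edges the values were as follows. Of the members just inside, PPWD1 differed by -0.40 in round 1 at the proximal end, and at the distal end ARHGEF28 by -0.92 and ENC1 by -0.069. Just outside, CENPK differed by -0.20 before PPWD1, and NSA2, a ribosome biogenesis factor, by 0.37 after ENC1. CENPK read 8.86 and 9.04 in stomach, 8.66 in round 1 ovary and 9.14 in round 2 ovary, with the same order of arrays as many members. NSA2 had its highest value of 10.37 on the round 1 ovary array against 10.00, 10.13 and 10.09. The next genes outward on the proximal side were ADAMTS6, CWC27, SREK1IP1 and SHISAL2B, at -0.051, 0.17, -0.029 and -0.21. On the distal side they were FAM169A, GCNT4, ANKRD31 and CERT1, at 0.13, -0.21, 0.34 and -0.24, of which CERT1 alone lay above the signal minimum.

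**Figure D3:**
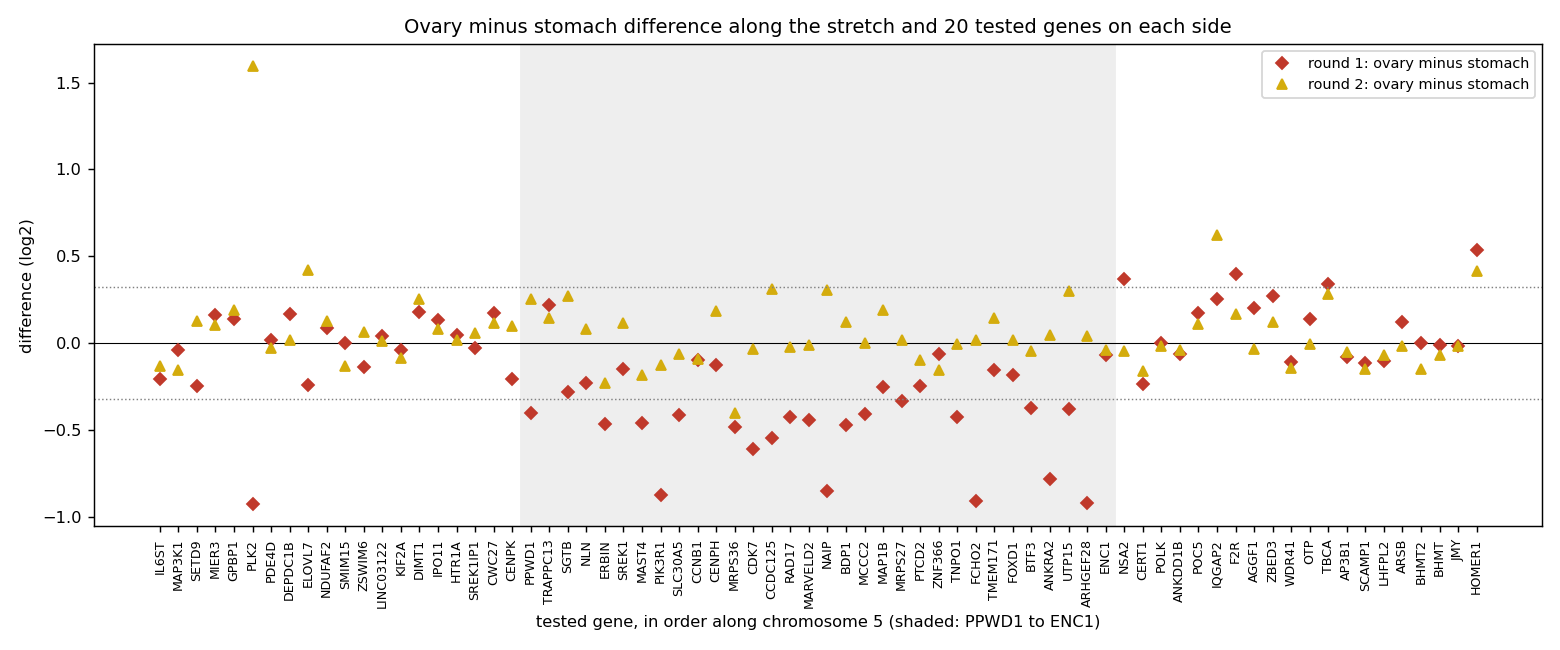
Ovary minus stomach difference (y axis, log2) in round 1 (red diamonds) and round 2 (yellow triangles) for the tested genes in order along chromosome 5 (x axis), with the stretch shaded, 20 tested genes on each side and dotted lines at 0.32 above and below 0. Inside the shading the round 1 points lie below 0 except for TRAPPC13 (0.22) while the round 2 points scatter around a median of 0.018, and outside it PLK2 is furthest from 0 in both rounds.

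The 20 tested genes before PPWD1 had a median round 1 difference of 0.0073, with 10 of 20 below 0 and 1 lower by at least 0.32, the kinase PLK2 (-0.93). Against the mean of the other 3 arrays, however, the round 1 ovary array was lower in 15 of these 20 genes (background 48.4%), 5 of them by at least 0.32 (background 5.66%), with a median of -0.083. Within the ovary lineage 6 of the 20 were higher by at least 0.32 in round 2 (background 9.21%). In the stomach lineage round 2 was higher as well, by a median of 0.14 beside 0.17 in the ovary lineage. At each site 4 of 20 were lower in round 2 (background 53.8% in stomach and 50.4% in ovary). At the median, the low values before PPWD1 were thus shared by both round 1 arrays, unlike those of the stretch. The 20 tested genes after ENC1 had a median round 1 difference of 0.061, with 9 of 20 below 0 and none lower by at least 0.32. Against the mean of the other 3 arrays 9 of these 20 were lower, 1 of them by at least 0.32, and 1 was higher by at least 0.32 in round 2 of the ovary lineage. Over the other 564 tested genes of chromosome 5 the median was -0.0011 and 30 were lower by at least 0.32. PLK2, a kinase induced by stress, also differed by 1.60 in round 2, in the opposite direction. Within the stretch itself, the 11 measured members from PPWD1 to CENPH had a median of -0.28, the 9 from MRPS36 to MAP1B one of -0.47 and the 12 from MRPS27 to ENC1 one of -0.35.

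**Figure D4:**
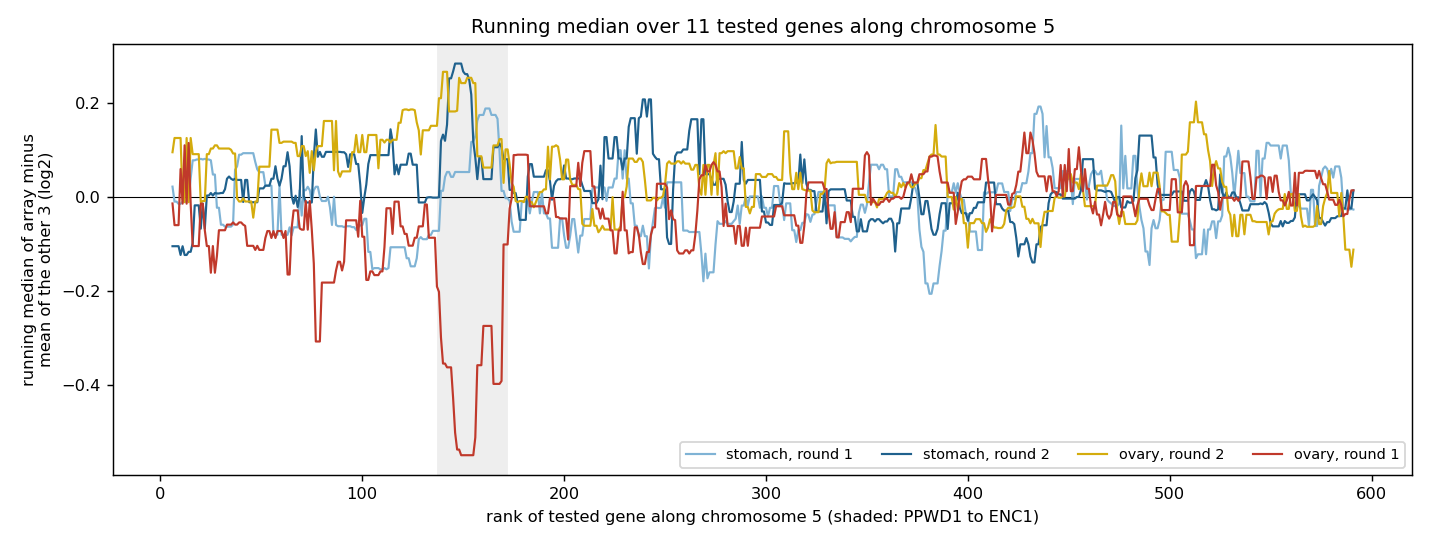
Running median over 11 tested genes of each array minus the mean of the other 3 (y axis, log2) against the rank of the gene along chromosome 5 (x axis), 1 line per array, with the stretch shaded. The line of the round 1 ovary array falls to -0.55 inside the shading, and in windows free of the stretch it reaches -0.31.

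Along the whole chromosome, the running median of the round 1 ovary array against the mean of the other 3 had its lowest point, -0.55, within the stretch, at CENPH. In the 542 windows without a member it ranged from -0.31, at NUP155, to 0.14. The lowest points of the other 3 arrays lay between -0.14 and -0.21 and outside the stretch. The stomach and ovary arrays of round 2 had their highest points in the stretch, 0.28 and 0.27, and the round 1 stomach array outside it, 0.19 at CAMK2A. Each array is set against a mean of the others, so these lines are not independent.

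Measured rows in the stretch that are not members gave smaller differences. LOC401191 and the long non-coding RNA LINC02198 differed by 0.014 and -0.0086 in round 1, the first from under the signal minimum. LOC441081 differed by -0.13. The 11 rows annotated to several genes at once, among them those for TAF9, OCLN, GTF2H2 and SMN1, cannot be given to one gene and entered no count. Their round 1 differences ran from -0.44 to -0.65 and their round 2 differences from -0.16 to 0.13. In 11 of 11 the round 1 ovary array was the lowest, where 25.4% of all tested genes had it lowest. These rows hold 9 distinct sets of values.

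Of the 35 members with a row of their own, 9 have over 1, which gives 10 further rows. Of these, 4 repeat the values of the row used exactly and are no second measurement. The 6 others, for TRAPPC13, RAD17, CCDC125, BDP1 and NAIP (2 rows with the same values), gave round 1 differences of the same sign as the row used. RAD17 differed by -0.49 on its second row and -0.42 on the first, and CCDC125 by -0.51 and -0.55. Rows of one gene can share probes, so they are not independent.

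Between the sites over both rounds, the median difference of the members was -0.18, against 0.0016 over all tested genes, and without the round 1 ovary array it was 0.022. Both ovary arrays lay below both stomach arrays in 2 of 32 members, PTCD2 and TNPO1, against 11.2% of all tested genes, and above them in 0 of 32, against 13.4%. The round 1 ovary array was below both stomach arrays in 26 of 32 members (background 29.4%), and the round 2 ovary array in 3 of 32 (background 29.8%). The round 2 ovary array lay above both stomach arrays in 12 of 32 members, against 31.5% of all tested genes. CCDC125 (0.31), NAIP (0.30) and UTP15 (0.30) had the largest round 2 differences in that direction. Across all 14547 genes, limma called 0 between sites at an adjusted p under 0.05, and the share called was 0%. At an unadjusted limma p under 0.05 there were 378 genes, where 727 would be expected with no differences.

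Between the rounds, the median of the members was 0.32 higher in round 2, against -0.019 over all tested genes, and without the round 1 ovary array it was 0.10. The ovary round change exceeded the stomach round change by a median of 0.38, where all tested genes had 0.025. With both sites in 1 fit, limma called 0 of 14547 genes for round 2 minus round 1, again 0%. At an unadjusted limma p under 0.05 there were 2178 genes, beside the same 727 expected. In stomach the members higher by at least 0.32 in round 2 were TRAPPC13, ANKRA2, CCNB1, CENPH and MRPS36, and those lower were MAP1B and TMEM171.

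Many members encode 1 subunit of a complex whose other parts are encoded outside the stretch, in the case of CENPK right beside it. Some of the 15 partner lists hold such subunits. Others hold genes of the same family, structure or pathway, such as zinc transporters, import receptors, tight junction genes and mitotic regulators. Of the 159 partner genes, 149 were above the minimum, and their median round 1 site difference was 0.073. Of these, 1 was lower by at least 0.32 (background 4.73%) and 13 were higher (background 5.06%). In the ovary lineage 7 of 149 were higher by at least 0.32 in round 2 (background 9.21%) and 14 lower (background 6.51%), with a median of -0.0051. The comparison of partners with members is a description, since the members were chosen on these values.

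**Figure D5:**
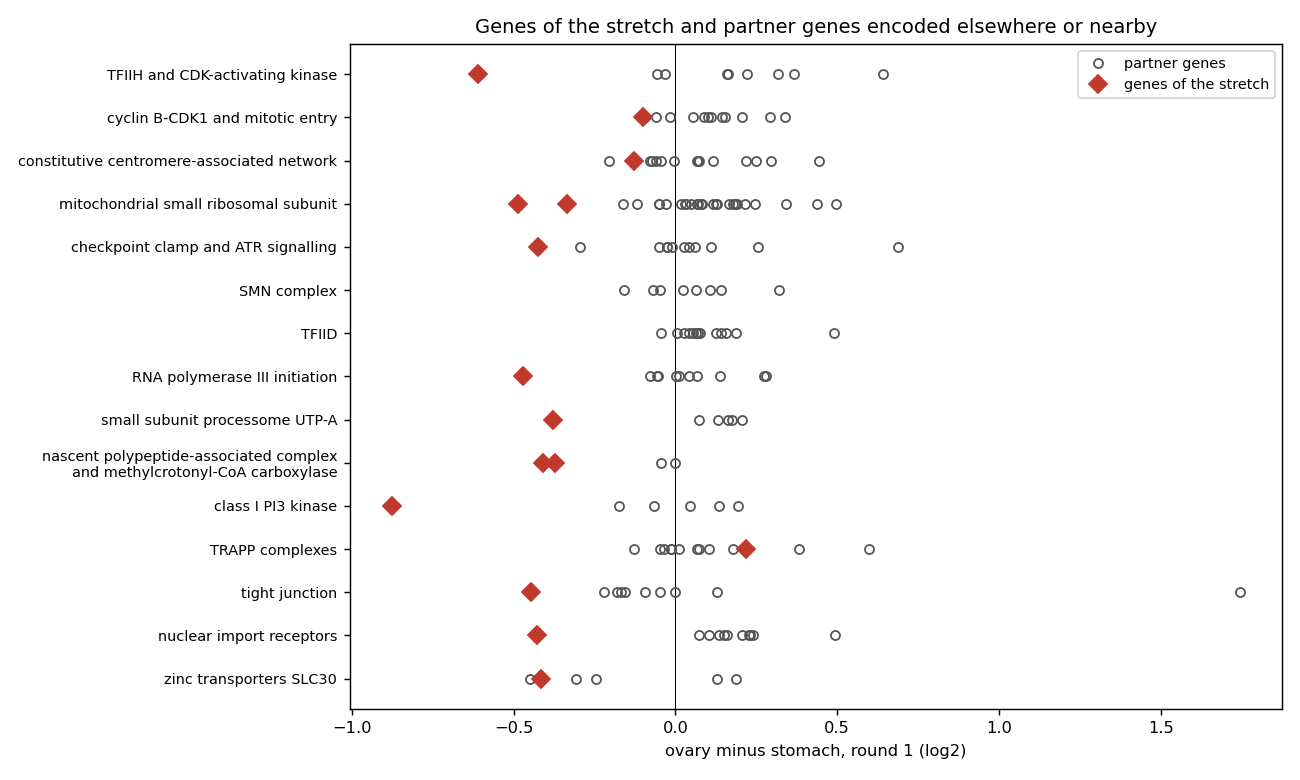
Ovary minus stomach difference of round 1 (x axis, log2) for genes of the stretch (red diamonds) and partner genes of the same complex, family, structure or pathway (open circles), 1 row per list. SMN1, TAF9, GTF2H2 and OCLN are not drawn because their rows are shared with other genes. MRPS36, once counted as a ribosomal protein, is drawn in the row of the mitochondrial ribosome. In most rows the diamond lies left of the circles, as for CDK7 at -0.61 beside a TFIIH median of 0.19, and in the TRAPP, centromere and zinc transporter rows it lies among them.

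The 8 partners of CDK7 in TFIIH and its kinase module had a median round 1 difference of 0.19, and none was lower by at least 0.32. GTF2H1 read 9.52 on the round 1 ovary array against 8.88 and 8.92 in stomach and 9.11 in round 2 ovary, the reverse of CDK7. GTF2H3 differed by 0.37 and ERCC2, a helicase of the complex, by 0.22. The 5 measured partners of PIK3R1 had a median of 0.045, with PIK3R3, another regulatory subunit, at 0.19 in round 1 and higher in round 2 by 0.71 in stomach and 0.75 in ovary.

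MCCC1, the other subunit of methylcrotonyl-CoA carboxylase, and NACA, the partner of BTF3, hardly differed between arrays. MCCC1 read 8.96 and 8.92 in stomach and 8.95 and 8.95 in ovary, a round 1 difference of -0.0023 beside -0.41 for MCCC2. NACA differed by -0.045 beside -0.37 for BTF3. Of 25 measured partners in the small mitochondrial ribosomal subunit none was lower by at least 0.32 in round 1 and 3 were higher, with a median of 0.082.

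Of 12 partners of CCNB1 in mitotic entry, 0 were higher and 0 lower by at least 0.32 in round 2 of the ovary lineage, and 2 were higher in the stomach lineage (background 6.46%). CCNB2, a second mitotic cyclin, read 10.58 and 10.93 in stomach and 10.92 and 10.75 in ovary for rounds 1 and 2. Among the 14 measured centromere partners, 3 were higher by at least 0.32 in round 2 of the ovary lineage (background 9.21%), CENPQ (0.54), CENPK (0.48) and CENPC (0.43), and 4 in the stomach lineage (background 6.46%). CENPH itself was higher by 0.67 and 0.36.

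Checkpoint partners of RAD17 had a median of 0.026 and polymerase III factors beside BDP1 one of 0.026, with GTF3A at 0.28. Partners of UTP15 in the small subunit processome had a median of 0.16, and UTP4 was lower in round 2 at both sites (-0.51 and -0.46). The SMN complex partners had a median of 0.044, with STRAP at 0.32, and those in TFIID one of 0.070, with TAF10 at 0.49.

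Import receptors beside TNPO1 had a median of 0.18, with IPO8 at 0.49, and TRAPP subunits beside TRAPPC13 one of 0.066, with TRAPPC2L at 0.38. Tight junction genes beside MARVELD2 had a median of -0.095. The claudin CLDN1 read 8.998 on the round 1 ovary array against 7.25 and 7.31 in stomach and 7.67 in round 2 ovary, the opposite of MARVELD2. CGN and CLDN4 had their lowest values on the round 1 ovary array, as MARVELD2 did, with round 1 differences of -0.18 and -0.22. Of the 9 measured, 1 was higher by at least 0.32 in round 1 (background 5.06%) and 0 lower (background 4.73%). Zinc transporters were the list with the lowest median, -0.25, and SLC30A4 at -0.45 was the 1 partner gene lower by at least 0.32 in round 1.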

How the data were processed

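Total RNA of cultured cells was biotin-labelled (WT Terminal Labeling) and read on Affymetrix arrays, per the labels' protocols. The values, on a log2 scale, are those of 1 table deposited by the authors. The submitters' processing notes name Affymetrix Expression Console, and for background correction, normalization, summarization and build no method is given in the sources used here. Any scaling between arrays would hide a shift common to all transcripts.

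Of 33297 rows, 19460 have 1 symbol in the platform annotation, 1754 have several and 12083 are unnamed here. Symbols and gene order came from the RefSeq table of GRCh38.p14 (19429 rows matched, 31 not). Each gene is represented by its probe set of highest mean, and genes above the 30th percentile of row means (5.64) were tested. Single arrays were compared by differences, counted from 0.32 (log2). Sites and rounds were also compared across all genes with limma 3.58.1 (R 4.3.3; lmFit, eBayes; adjusted p by Benjamini-Hochberg), after the script was tested on simulated data. Nothing marks the arrays of a site as separate animals. P-values of the site fit measure the spread between rounds within a site, and those of the round fit the spread between sites within a round. With a block, they measure what is left after site and round. Each of these spreads may be technical. Alternatives varied the signal minimum, normalization, probe set rule, variance prior, thresholds, arrays used and block.

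Members, role groups, partner lists and markers were chosen with earlier results of these data known. Named genes are all members with a row, measured non-members inside the stretch, 5 measured genes beyond each end, and up to 3 per partner list by the size of the ovary round change. PLK2 and NUP155 and the splits at a level of 8 and into sections were chosen after their values were seen. Proteins are not analysed here.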

Additional observations from a re-analysis of the deposited data

Results flagged for a closer look

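The median difference between ovary and stomach over the 32 measured genes of the stretch was -0.40 in round 1 and 0.018 in round 2, so the rounds have opposite signs. The difference between rounds was not tested, since each rests on 1 array per site. Of the 32 genes, 17 were lower in ovary in round 1 and higher in round 2, 14 were lower in both and 0 were higher in round 1 and lower in round 2. In round 1, 31 of 32 were below 0 (background 51.4%), on the values by which the stretch was chosen. These counts therefore follow the signs of round 2, with 14 of 32 below 0 (background 45.5%), and nothing is read from them. The round 2 median is within 0.32 of 0, as are 31 of the 32 genes in that round.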

How the results depend on the processing

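The number of arrays limits the precision: 1 per site and round, with 2 residual degrees of freedom in the fits and 1 in those with a block or with an array left out. limma called 0 genes between sites and 0 between rounds under each alternative run: no signal minimum or the 50th percentile, quantile normalization, median centring, probe set means, trended and robust priors, an adjusted p threshold of 0.10, each array left out (0 to 0) and the replicate block. With the replicate block, which for sites is the round and for rounds is the site, the calls stayed at 0, with 916 and 2358 genes at an unadjusted p under 0.05. Deviations of the arrays of 1 round correlated at 0.411 across genes, over 2 pairs, too few to show pairing. With each array left out in turn, the median site difference of the members ranged from -0.40 to 0.022 and was 0.022 without the round 1 ovary array, and their median round difference ranged from 0.10 to 0.49 and was 0.10 without the same array and 0.49 without the round 1 stomach array. The difference between the round changes needs all 4 arrays. Members at a level of at least 8, an alternative chosen after seeing the data, gave medians of -0.21 for sites and 0.33 for rounds.

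Counts of members moved with the threshold. At 0.58 (log2) 6 were lower in ovary in round 1, 0 lower in ovary in round 2, 1 higher and 0 lower in round 2 of stomach, and 13 higher in round 2 of ovary. At 0.20 there were 1 higher in ovary in round 1, 5 higher and 2 lower in ovary in round 2, 8 higher and 5 lower in round 2 of stomach, and 1 lower in round 2 of ovary. With the signal minimum at the 50th percentile, which kept 26 members, 0 were lower in ovary in round 2 and 0 lower in round 2 of stomach. Quantile normalization gave 1 member higher in ovary in round 2. The shares of all tested genes at these settings are not given here, so the counts describe only how the member counts moved. Of the other 94 values, counts were equal or within 1.5 times of the main count. Medians moved by less than 0.30, the standard deviation of the members' median differences between rounds (for sites) or between sites (for rounds). This yardstick is wide because it includes the low round 1 ovary array. The site median without that array, 0.022 against -0.18, is counted among the 94 although its sign changed.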
